A study of Homo sapiens with 12 samples.

Results

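The 7 genes described here were HOXA5, HOXA7, HOXA9, HOXA10, HOXA11, MEIS1 and PBX3, taken by gene name from 59251 genes of 1 raw count table. They were read in HL-60 cells, a human myeloid leukaemia line, that were left non-treated or received 1 μM ATRA, palbociclib at 1 μM, an inhibitor of CDK4 and CDK6 (written CDK4/6i), or both agents (CDK4/6i+ATRA). Cells were collected after 48 h, and each of the 4 groups held 3 libraries labelled as biological replicates, 12 in all. All-trans retinoic acid (ATRA) is the ligand of the retinoic acid receptors, and palbociclib blocks the kinases that take cells out of G1. All groups came from this single line, so the p-values measure the spread between its cultures and not between patients.

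HOX proteins are homeodomain transcription factors whose genes lie in clusters, and the genes of a cluster are classically opened from the anterior to the posterior end when cells meet retinoic acid. The middle and posterior HOXA genes are known for keeping blood progenitors immature, and HOXA9 is a hallmark of several acute leukaemias. MEIS1 and PBX3 are TALE homeodomain proteins, cofactors that bind DNA together with HOX proteins and sharpen their choice of sites.

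Total counts per library ran from 12230923 to 18679544. CPM is the unit that divides each count by its library's total. By total alone, 3 counts, used here as the floor of detection, corresponded to 0.161 to 0.245 CPM. The CPM levels given below are TMM-normalised, so each total was first multiplied by a scaling factor. That factor was 0.840 to 0.893 in the CDK4/6i+ATRA libraries. On the TMM scale, 3 counts corresponded to 0.155 to 0.275 CPM over all libraries. A group was called at the floor where each of its libraries held 3 counts or fewer, and such limits cover counting error alone. Of 8 myeloid markers, 5 were counted, and AZU1, ELANE and PRTN3, neutrophil granule protein genes also listed on alternate contigs, were at 0 in all 12 libraries. The summed level of the myeloid list ran from 7270 to 7605 CPM in non-treated cells, 1354 to 1412 under ATRA, 4313 to 4433 under CDK4/6i and 1312 to 1370 under CDK4/6i+ATRA. MPO, per kilobase of exon the highest of the 5 when non-treated and the lowest with both agents, went from 6510 ± 167 CPM to 27.9 ± 5.15 CPM. With both agents CEBPA went from 377 ± 9.33 to 76.3 ± 0.732 CPM and CD33 from 93.8 ± 2.50 to 99.7 ± 5.23 CPM. SPI1 went from 301 ± 3.02 to 854 ± 15.5 CPM and CEBPE from 169 ± 4.80 to 284 ± 4.26 CPM. So 2 of the 5 rose, 2 fell and 1, CD33, passed no test, with a median log2 fold change of 0.09. The part of these changes in the results below was not tested. The summed T cell list stayed at or below 3.11 CPM, the erythroid list at or below 1.32 CPM and the stromal and epithelial list at or below 0.233 CPM in every library, while the B cell list ran from 12.5 to 24.9 CPM. In bulk RNA, fewer cells that express a gene and less of its RNA per cell cannot be told apart.

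The members fell into 3 that were measured in every group and 4 that were not. HOXA5, HOXA11 and PBX3 held counts in all 12 libraries and passed the filter on low counts. HOXA9, HOXA10 and MEIS1 held 0 counts in every library, and HOXA7 held 8 counts in all, never more than 3 in a library. These 4 genes were at the floor in all 4 groups, and no comparison was tested for them. A total of 0 was no rarity in this table, since 31154 genes, 52.6% of those listed, had none.

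For 3 of these 4 genes the floor may have been set partly by the annotation. Exon bases that 2 annotated genes shared appeared not to have been counted for either, on either strand. Of 988 genes with every exon base inside another gene's exons on the same strand, 1.52% had any count. Of 408 genes covered on the opposite strand, 0.735% had one, against 50.3% of 52701 genes with some exon base of their own. These sets were not matched for length or kind of gene, so the shares alone cannot settle how shared bases were counted. HOXA9 (hg38 chr7:27162438-27165537, minus strand) had 570 of 2064 exon bases to itself, because 1494 lie in the readthrough gene HOXA10-HOXA9, itself at 0. HOXA10 (chr7:27170605-27179861, minus strand) had 1933 of 2757 exon bases to itself, with 608 shared with the antisense HOXA10-AS and 216 with the readthrough gene. HOXA7 (chr7:27153716-27156675, minus strand) kept 509 of 2016 bases, the other 1507 lying opposite HOXA-AS3. MEIS1 (chr2:66435125-66573869, plus strand) shared none of its 4566 exon bases.

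**Figure D1:**
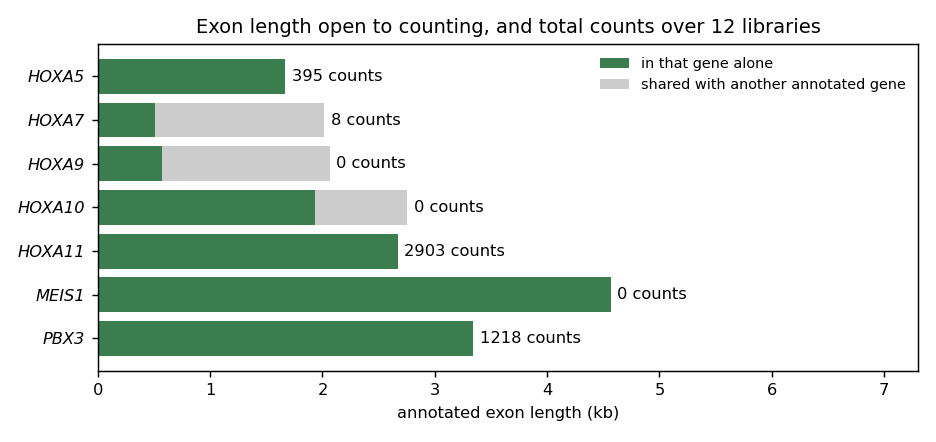
Annotated exon length of the 7 genes in kilobases, split into bases in that gene alone (green) and bases shared with another annotated gene (grey), with total counts over 12 libraries beside each bar. HOXA9 keeps 570 bases and HOXA7 509, while HOXA5, HOXA11, MEIS1 and PBX3 share none; MEIS1 has the longest open exon length of the 7 and 0 counts.

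Per kilobase of unshared exon, 3 counts in a library stood for at most 0.0602 RPKM for MEIS1, 0.142 for HOXA10, 0.482 for HOXA9 and 0.540 for HOXA7. RPKM here is TMM-normalised CPM per kilobase of exon, the scale on which levels are compared between genes. These were the limits of the least favourable library. For HOXA9 they ran from 0.290 to 0.324 RPKM under ATRA, 0.273 to 0.321 under CDK4/6i and 0.434 to 0.482 under CDK4/6i+ATRA. The mean level of HOXA5 with CDK4/6i, 0.326 RPKM, was close to the HOXA9 limits in those libraries. For MEIS1 the limit was below every level measured for HOXA5, HOXA11 or PBX3, the lowest of which was 0.183 RPKM.

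The measured members differed in order between groups. HOXA11 had the highest level in non-treated cells, at 6.94 ± 0.383 RPKM (SD, n = 3), above PBX3 at 1.83 ± 0.170 and HOXA5 at 0.592 ± 0.0901. With ATRA the order was the same, with HOXA11 at 4.50 ± 0.476, PBX3 at 2.81 ± 0.386 and HOXA5 at 0.935 ± 0.166 RPKM. With CDK4/6i, PBX3 at 0.334 ± 0.0637 RPKM and HOXA5 at 0.326 ± 0.137 RPKM overlapped, and HOXA11 stood at 6.67 ± 0.243. With CDK4/6i+ATRA the 3 genes lay close together. HOXA11 at 4.49 ± 0.337 RPKM overlapped HOXA5 at 4.10 ± 0.538, and every HOXA5 library was above PBX3 at 3.22 ± 0.160.

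**Figure D2:**
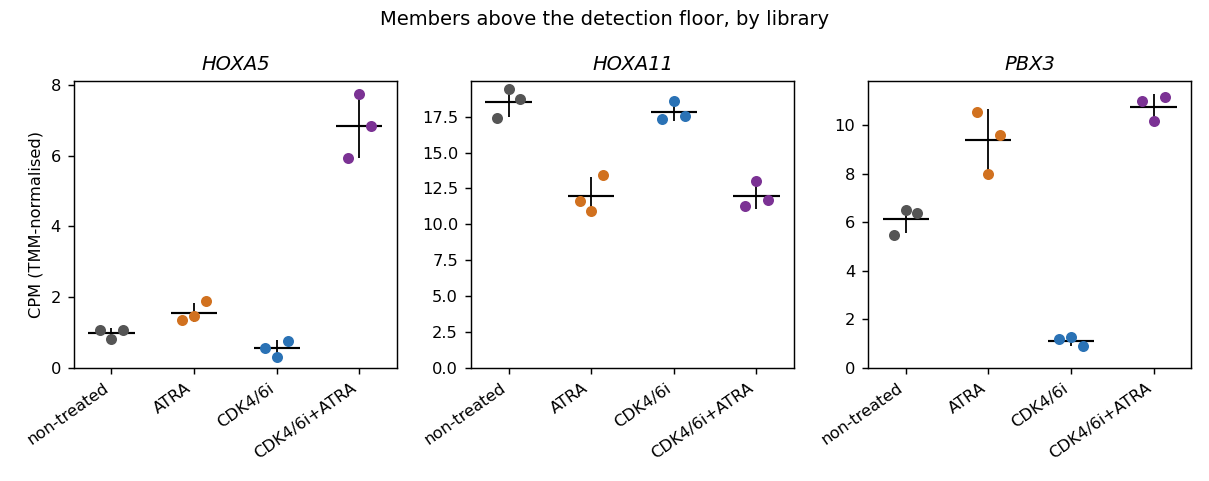
TMM-normalised CPM of HOXA5, HOXA11 and PBX3 in each of 12 libraries (points), with the group mean (horizontal line) and SD (vertical line, n = 3), each panel with its own vertical axis from 0. HOXA5 reaches 5.95 to 7.75 CPM under CDK4/6i+ATRA, HOXA11 separates the ATRA-containing groups from the others, and PBX3 is lowest with CDK4/6i, at 0.877 to 1.28 CPM.

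HOXA5, a mid-cluster gene reported to favour myeloid over erythroid fates, was 6.87-fold higher with both agents than in non-treated cells. Its gene lies at chr7:27141052-27143681 on the minus strand. Raw counts were 18, 13 and 19 when non-treated, 22, 25 and 34 under ATRA, 11, 5 and 13 under CDK4/6i, and 65, 87 and 83 under CDK4/6i+ATRA. The CDK4/6i+ATRA libraries were all above every other library, and the other 3 groups also did not overlap each other in CPM. All comparisons below were tested by quasi-likelihood in edgeR, and adjusted p-values are Benjamini-Hochberg values over 13318 tested genes, called at 0.05. The log2 fold change against non-treated cells was 2.78 ± 0.260 (SE) with both agents (edgeR adjusted p = 5.46e-16). Against either agent alone it was 3.62 ± 0.286 (over CDK4/6i) and 2.12 ± 0.240 (over ATRA).

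The single agents left HOXA5 near the threshold in opposite directions. With ATRA alone its log2 fold change was 0.66 ± 0.307, with a 95% interval of 0.04 to 1.27 (edgeR adjusted p = 0.0527). With CDK4/6i alone the value was -0.84 ± 0.375 (edgeR adjusted p = 0.0492), and that call was lost in 16 of 18 alternatives. In 15 of the 16 the log2 fold change stayed between -0.88 and -0.78 with adjusted p from 0.0508 to 0.118, and without CDK4/6i replicate 2, the library with 5 counts, it was -0.58 (adjusted p = 0.227). The sum of the single-agent changes was -0.19 on the log2 scale, against 2.78 measured with both, and the interaction, the difference between these, was 2.97 ± 0.447 (edgeR adjusted p = 3.22e-08). It remained called in each of 17 alternatives, between 2.65 and 3.25. HOXA5 could not be read under the filter that asks for 10 counts in every library, because that filter dropped it.

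HOXA11, a posterior gene best known from limb, kidney and uterine development, was lower wherever ATRA was present. It lies at chr7:27181157-27185232 on the minus strand. Its raw counts were 290, 310 and 333 when non-treated, 189, 188 and 243 under ATRA, 335, 304 and 300 under CDK4/6i, and 123, 146 and 142 under both. In CPM both groups without ATRA lay between 17.4 and 19.4, and both groups with ATRA between 10.9 and 13.4, so the ATRA-containing groups did not overlap the others. The log2 fold change was -0.62 ± 0.0966 with ATRA (edgeR adjusted p = 3.45e-08) and -0.63 ± 0.104 with both agents (edgeR adjusted p = 1.40e-07).

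No change of HOXA11 with CDK4/6i passed the test. Its log2 fold change with CDK4/6i alone was -0.06, with a 95% interval of -0.24 to 0.12 (edgeR adjusted p = 0.620). Between CDK4/6i+ATRA and ATRA the difference was -0.0029, with an interval of -0.22 to 0.22 (edgeR adjusted p = 0.983). The interaction was 0.05, with an interval of -0.23 to 0.34 (edgeR adjusted p = 0.786). Scaled by library size alone, CDK4/6i+ATRA was below ATRA by -0.31 (edgeR adjusted p = 0.0115), a scaling that also moved the median of all tested genes in that comparison from 0.04 to -0.26.

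PBX3, a cofactor that HOXA9-driven leukaemias are reported to depend on, was the member that CDK4/6i lowered furthest. The gene lies at chr9:125747373-125967377 on the plus strand. It held 91, 104 and 113 counts when non-treated, 171, 137 and 174 under ATRA, 23, 21 and 15 under CDK4/6i, and 120, 114 and 135 under CDK4/6i+ATRA. All CDK4/6i libraries were below all others, and the ATRA and CDK4/6i+ATRA libraries overlapped each other above the non-treated ones. With CDK4/6i, PBX3 fell to 0.184 of the non-treated level, a log2 fold change of -2.44 ± 0.204 (edgeR adjusted p = 1.48e-17). With ATRA it rose by 0.61 ± 0.139 (edgeR adjusted p = 7.59e-05), and with both agents by 0.82 ± 0.144 (edgeR adjusted p = 5.60e-07).

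The fall of PBX3 with CDK4/6i was not seen when ATRA was present. Between CDK4/6i+ATRA and ATRA alone the log2 difference was 0.20, with a 95% interval of -0.07 to 0.47 (edgeR adjusted p = 0.180). ATRA added to CDK4/6i raised PBX3 by 3.26 ± 0.194, or 9.57-fold. The interaction was 2.64 ± 0.249 (edgeR adjusted p = 3.98e-15), and the sum of the single-agent changes, -1.83, was of the opposite sign to the 0.82 measured with both agents.

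Counts of called members are set beside the share of all tested genes called in the same comparison, since most genes of these cells were called. With ATRA, 2 of 3 tested members were called, 1 higher and 1 lower, and 67.7% of all tested genes were. With CDK4/6i, 2 were called, both lower, against 56.2% of all genes, and 1 of these was the HOXA5 call described above. Between CDK4/6i+ATRA and non-treated cells all 3 tested members were called, 2 higher and 1 lower, against 81.7%. ATRA added to CDK4/6i gave 3 calls against 78.7%, and CDK4/6i added to ATRA gave 1, HOXA5, against 69.8%. The interaction was called in 2, HOXA5 and PBX3, against 51.6% of all genes. With 3 genes tested, these shares describe the members and set them apart from other genes in no comparison.

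The upstream sequence of HOXA11 is shown because the annotated transcripts of the gene and of its antisense partner run close together there. RefSeq promoters (GRCh38.p14) were matched for 6 of the 7 members, with 7 start sites in all. The 250 bases before the HOXA11 start, chr7:27185233-27185482 on the minus strand, are given 5′ to 3′, with capitals for the 75 bases that lie opposite the first exon of HOXA11-AS. PBX3 is shown beside it as the member that CDK4/6i lowered furthest. Its 250 bases, chr9:125747933-125748182 on the plus strand, lie before the RefSeq start and between the first exons listed in the count table, with capitals for the match described next.
HOXA11: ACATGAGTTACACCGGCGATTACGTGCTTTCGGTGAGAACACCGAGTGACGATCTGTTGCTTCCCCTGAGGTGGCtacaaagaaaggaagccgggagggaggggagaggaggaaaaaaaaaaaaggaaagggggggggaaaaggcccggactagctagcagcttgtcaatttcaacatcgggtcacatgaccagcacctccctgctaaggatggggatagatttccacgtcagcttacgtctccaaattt
PBX3: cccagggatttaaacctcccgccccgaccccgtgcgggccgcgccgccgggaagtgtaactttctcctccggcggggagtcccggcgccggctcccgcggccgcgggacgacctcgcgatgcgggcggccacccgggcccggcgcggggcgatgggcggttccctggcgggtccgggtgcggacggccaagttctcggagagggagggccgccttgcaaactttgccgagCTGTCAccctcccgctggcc

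Both windows and those of HOXA7, HOXA9, HOXA10 and MEIS1 were searched on both strands for AGGTCA (a retinoid receptor half-site), TGACAG (bound by MEIS and PKNOX proteins) and TGATTNAT (bound by PBX with HOX proteins). The only match in the 7 member windows was 1 TGACAG on the reverse strand of PBX3, starting 20 bases before the start site. Over 35116 RefSeq promoters of the same length, 12.1% held AGGTCA, 13.0% held TGACAG and 2.48% held TGATTNAT. No motif overlapped another in the member windows. GC content was 51.6% for HOXA11 and 75.6% for PBX3, beside a median of 58.0% over all promoters.

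The remaining HOXA genes had few counts or none in the middle of the cluster. Of 10 HOXA protein genes described here, 3 had over 20 counts in some library: HOXA5, HOXA11 and HOXA13. HOXA2, HOXA4 and HOXA7 had 9, 2 and 8 counts over 12 libraries, HOXA3 had 55 and HOXA6 had 42, and none of these 5 exceeded 11 in a library. Per kilobase of exon HOXA6 with CDK4/6i, at 0.371 ± 0.229 RPKM, was at a level like that of HOXA5 in the same libraries, 0.326 RPKM. HOXA9 and HOXA10, at 0, lie directly between HOXA7 and HOXA11, the latter of which starts 41.6 kb from the start of HOXA5.

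HOXA13, the most posterior gene of the cluster, was lower with every treatment and fell furthest with both agents. It held 157, 158 and 153 counts when non-treated, 81, 84 and 97 under ATRA, 119, 90 and 114 under CDK4/6i, and 7, 6 and 3 under both. The libraries given both agents were far below all others. The log2 fold changes were -0.87 ± 0.147, -0.60 ± 0.142 and -4.29 ± 0.261 with ATRA, CDK4/6i and both agents (edgeR adjusted p = 2.73e-07, 1.82e-04 and 3.47e-25), with an interaction of -2.82 ± 0.347. Counts of 3 to 7 leave the level with both agents, 0.474 ± 0.203 CPM, only just above the floor.

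The noncoding genes at both ends of the cluster had few counts, and HOTAIRM1, of 1044 exon bases, reached 5.79 ± 1.01 RPKM with both agents. HOTAIRM1, a myeloid noncoding RNA at the anterior end, held 25, 19 and 15 counts when non-treated, 68, 65 and 44 under ATRA, 26, 33 and 27 under CDK4/6i, and 77, 69 and 60 under both. It rose with ATRA by 1.55 ± 0.262 (edgeR adjusted p = 2.86e-07) and with both agents by 2.35 ± 0.254 (edgeR adjusted p = 1.79e-13) on the log2 scale. With CDK4/6i its log2 fold change was 0.48 ± 0.296 (edgeR adjusted p = 0.169). HOTTIP, beyond HOXA13, held 9, 8 and 11 counts when non-treated, 22, 17 and 16 under ATRA, 5, 6 and 9 under CDK4/6i, and 3, 0 and 4 under both. The ATRA libraries were the highest and did not overlap the non-treated ones, at a log2 fold change of 0.94 ± 0.434 (edgeR adjusted p = 0.0501), which passed with DESeq2 size factors (adjusted p = 0.0425), library size alone (0.0428), the compared groups only (0.0250) and without ATRA replicate 3 (0.0490). With both agents HOTTIP was lower than in non-treated cells, a log2 fold change of -1.41 ± 0.656 (edgeR adjusted p = 0.0432) that 7 alternatives did not call. Without CDK4/6i+ATRA replicate 2, the library with 0 counts, it was -0.86 (edgeR adjusted p = 0.241). In the others of these alternatives it lay between -1.66 and -1.33.

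HOXA11-AS, the antisense partner of HOXA11, held 9 to 45 counts per library, and its groups overlapped. Its log2 fold change was 0.21 ± 0.325 with ATRA (edgeR adjusted p = 0.575) and -0.43 ± 0.380 with both agents (edgeR adjusted p = 0.286). Exons of HOXA11 and HOXA11-AS shared no base, so the counting of shared exons did not touch HOXA11. HOXA-AS2, HOXA-AS3, HOXA10-AS, HOXA10-HOXA9 and MIR196B had too few counts to be tested.

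**Figure D3:**
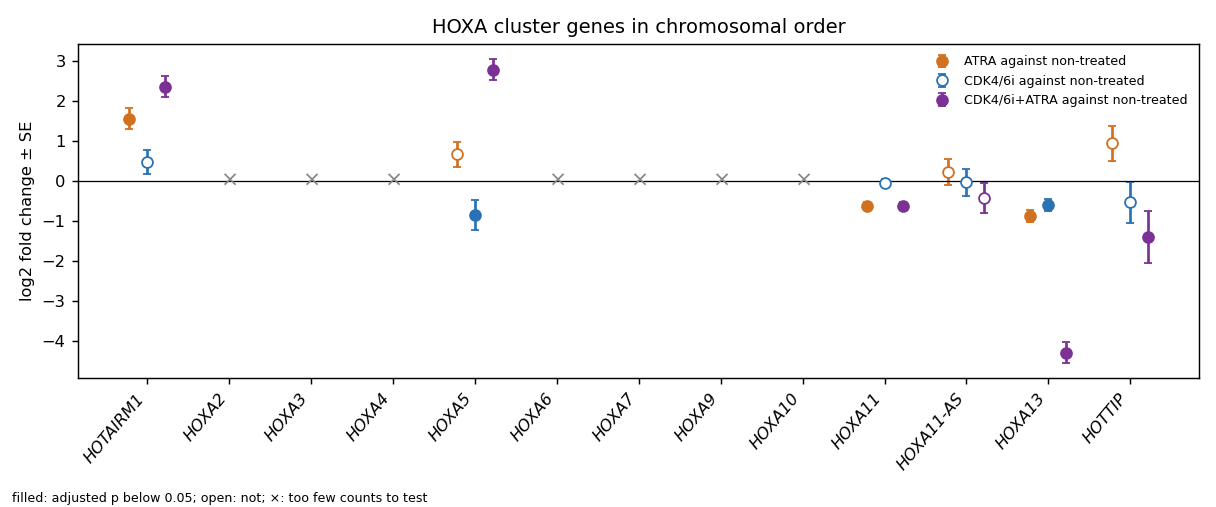
Log2 fold change against non-treated cells (vertical axis, ± SE) for HOXA cluster genes in chromosomal order, with orange for ATRA, blue for CDK4/6i and purple for CDK4/6i+ATRA, filled where the edgeR adjusted p was below 0.05 and open where it was not, and a cross for genes with too few counts to test. HOTAIRM1 and HOXA5 lie above 0 and HOXA11, HOXA13 and HOTTIP below 0 with both agents, and the 7 untested genes drawn include HOXA7, HOXA9 and HOXA10.

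In the HOXB, HOXC and HOXD clusters 28 protein genes were listed, 14 of them at 0 in every library and 4 tested, HOXB6, HOXC9, HOXC10 and HOXD13. HOXC10 had the most counts, 125 to 150 when non-treated, 288 to 323 under ATRA, 104 to 128 under CDK4/6i, and 51 to 67 under both. It rose with ATRA by 1.12 ± 0.112 (edgeR adjusted p = 1.50e-14) and fell with both agents by 0.60 ± 0.146 (edgeR adjusted p = 1.83e-04) on the log2 scale. HOXC9 held 5 to 9 counts when non-treated and 18 to 27 under ATRA, a log2 fold change of 1.49 ± 0.419 (edgeR adjusted p = 0.00126). With both agents its value was 0.67 ± 0.497 (edgeR adjusted p = 0.208). HOXB6 rose with ATRA from a mean of 0.201 to 0.808 CPM, a log2 fold change of 1.97 ± 0.559 (edgeR adjusted p = 0.00144). With both agents HOXB6 reached 1.35 CPM, a log2 fold change of 2.71 ± 0.541 (edgeR adjusted p = 6.34e-06). The difference of HOXB6 between both agents and ATRA alone was 0.74 ± 0.421 (edgeR adjusted p = 0.109). HOXD13, a paralogue of HOXA13, held 120, 131 and 142 counts when non-treated, 74, 73 and 73 under ATRA, 125, 122 and 96 under CDK4/6i, and 18, 17 and 21 under both. The libraries given both agents were the lowest, and the log2 fold change was -2.25 ± 0.206 (edgeR adjusted p = 2.41e-16).

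Of the other PBX and MEIS genes, PBX2 was higher with both agents. MEIS3, which did not pass the filter, held 0 to 4 counts in the first 3 groups and 17, 7 and 11 with both agents. PBX2, also listed on alternate contigs, had 16 to 21 counts in non-treated cells and 27 to 30 with both agents, a log2 fold change of 1.18 ± 0.317 (edgeR adjusted p = 5.87e-04). PBX4 and PKNOX2 had no counts.

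MEIS2, the MEIS gene with the highest level in these cells, stood at 3.87 ± 0.194 RPKM when non-treated, where MEIS1 was at 0. Its counts were 408, 424 and 478 when non-treated, 521, 520 and 575 under ATRA, 341, 329 and 276 under CDK4/6i, and 272, 303 and 267 under both. In CPM the ATRA libraries were the highest and the CDK4/6i libraries the lowest, while non-treated and CDK4/6i+ATRA libraries overlapped. The log2 fold change was 0.27 ± 0.0761 with ATRA (edgeR adjusted p = 0.00125) and -0.53 ± 0.0819 with CDK4/6i (edgeR adjusted p = 4.00e-08), and with both agents it was -0.08 ± 0.0838 (edgeR adjusted p = 0.379).

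PKNOX1, a MEIS relative that binds the same sites, fell by 0.68 ± 0.0846 with CDK4/6i and by 0.38 ± 0.0882 with both agents on the log2 scale. TGIF1 and TGIF2 are TALE repressors known from TGF-β signalling. TGIF1 stood at 26.9 ± 1.82 CPM when non-treated, 21.3 ± 1.56 under ATRA, 49.7 ± 2.26 under CDK4/6i and 59.2 ± 0.759 under both. TGIF2 stood at 26.7 ± 0.627 CPM when non-treated, 9.46 ± 0.357 under ATRA, 26.2 ± 2.39 under CDK4/6i and 5.48 ± 0.282 under both. Over the 8 other TALE genes described here 5 were tested, and with both agents 2 rose and 2 fell by that test, the median log2 fold change being -0.08 beside 0.02 for all tested genes, of which 81.7% were called.

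**Figure D4:**
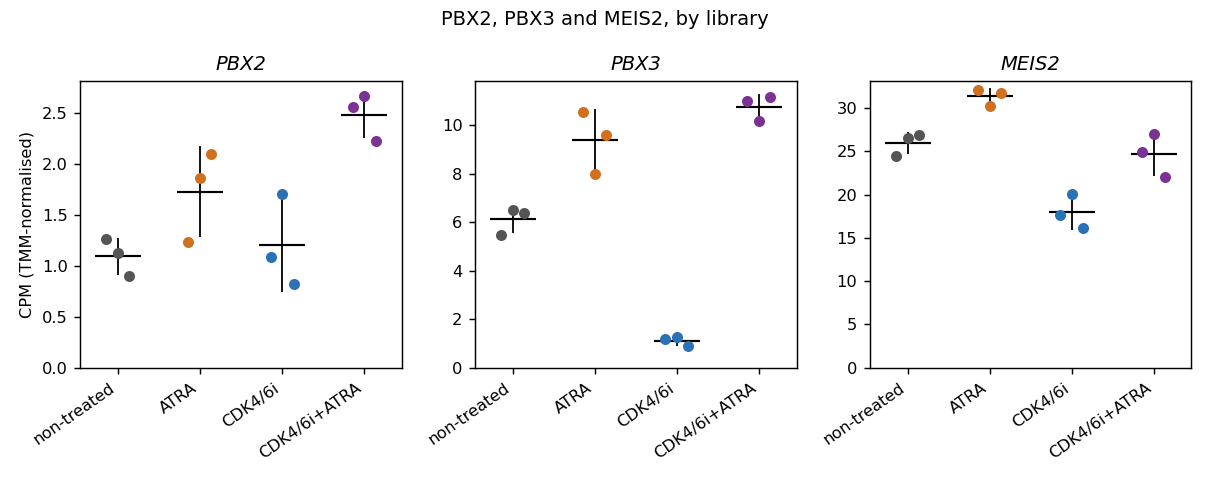
TMM-normalised CPM of PBX2, PBX3 and MEIS2 in each of 12 libraries (points), with group mean (horizontal line) and SD (vertical line, n = 3), each panel with its own vertical axis from 0. PBX3 and MEIS2 are lowest with CDK4/6i, and PBX2 is highest with CDK4/6i+ATRA.

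Factors that activate HOXA transcription, some of them in KMT2A (MLL) complexes, were more often lower than higher with both agents. Of 16 listed, 13 were tested and CDX1, CDX2 and CDX4 had no counts. With CDK4/6i+ATRA 9 fell and 2 rose by that test, the median log2 fold change being -0.63 beside 0.02 for all tested genes, of which 40.7% fell and 41.0% rose. With ATRA alone the numbers were also 9 lower and 2 higher (median -0.23), where 35.6% of all tested genes fell and 32.0% rose. With CDK4/6i alone 9 were lower and 1 higher (median -0.31), where 27.9% of all tested genes fell and 28.3% rose. With both agents PSIP1, the chromatin tether of the menin complex, changed by -2.67 ± 0.0948 and WDR5, a core subunit of the methyltransferase complexes, by -2.51 ± 0.0589. MEN1, which encodes menin itself, changed by -1.26 ± 0.0623. MLLT3, a reader of acetylated histones and fusion partner of KMT2A, changed by -1.20 ± 0.208. The 2 genes called higher with both agents were AFF4, a scaffold of the super elongation complex, at 2.02 ± 0.0574, and DOT1L, the H3K79 methyltransferase, at 1.12 ± 0.0363. KMT2A and KAT6A were not called with both agents, at 0.06 ± 0.0493 and 0.09 ± 0.0555 (edgeR adjusted p = 0.281 and 0.125). KMT2A was not called with ATRA alone either (0.07 ± 0.0472, edgeR adjusted p = 0.178). With CDK4/6i alone KMT2A was lower (-0.32 ± 0.0484, edgeR adjusted p = 3.44e-08).

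Genes reported as targets of HOXA9 and MEIS1 were listed although both factors were at 0 counts here, and the part of either factor was not tested. Of 17, 12 were tested, and with both agents 8 fell and 4 rose by that test, the median log2 fold change being -1.43 beside 0.02 for all tested genes. MYB, a progenitor transcription factor, went from 340 ± 5.72 CPM to 73.6 ± 1.45 with ATRA, 370 ± 6.43 with CDK4/6i and 11.2 ± 1.42 with both. With both agents BCL2, the survival factor, changed by -4.34 ± 0.0788 on the log2 scale and FLT3, the receptor kinase, by -4.08 ± 0.231. HMGB3, a chromatin protein, changed by -3.86 ± 0.0807. With ATRA alone BCL2 changed by -2.41 ± 0.0562, FLT3 by -2.39 ± 0.165 and HMGB3 by 0.05 ± 0.0487. With CDK4/6i alone the values were -0.36 ± 0.0467, -1.80 ± 0.153 and -1.78 ± 0.0565 in the same order. PIM1, a serine/threonine kinase, rose from 5.03 ± 0.178 CPM to 49.6 ± 2.35 CPM with ATRA and 106 ± 0.771 CPM with both agents, but fell to 0.638 ± 0.128 CPM with CDK4/6i alone. TRIB2, a pseudokinase, rose from 5.56 ± 0.567 CPM to 13.0 ± 1.46 with ATRA, 12.9 ± 0.306 with CDK4/6i and 55.5 ± 3.44 with both agents. With ATRA alone 7 of the 12 were called lower and 3 higher (median -0.30), and with CDK4/6i alone 6 lower and 4 higher (median -0.02), beside the shares of all tested genes given above.

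Both genes described as reported targets of HOXA10 in phagocytes rose with each treatment, where 32.0% of all tested genes were called higher with ATRA, 28.3% with CDK4/6i and 41.0% with both. CYBB, the catalytic subunit of the phagocyte oxidase, went from 131 ± 2.98 CPM to 2077 ± 36.5 with ATRA, 448 ± 11.1 with CDK4/6i and 3013 ± 83.6 with both. DUSP4, a MAP kinase phosphatase, went from 4.44 ± 0.158 CPM to 37.0 ± 3.12 with both agents. HOXA10 itself was at 0 in the same libraries, with 1933 of its 2757 exon bases shared with no other annotated gene. The part of HOXA10 in these rises was not tested.

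The genes most like each measured member were found by the root-mean-square difference of gene-centred log2 CPM over the 12 libraries, among genes whose mean was 5 CPM or more. For HOXA5 they were FAM89B (0.316), PTMS (0.355) and DUSP5 (0.361), each highest with both agents. FAM89B, for example, stood at 23.6 ± 2.88 CPM when non-treated, 39.6 ± 1.81 under ATRA, 21.7 ± 1.99 under CDK4/6i and 183 ± 4.90 under both. For HOXA11 they were TSTD2 (0.0737), AAMP (0.0742) and XXYLT1 (0.0779), and for PBX3 they were SOAT1 (0.261), DOCK10 (0.326) and ABI2 (0.394). These distances are descriptions, and the smaller ones of HOXA11 go with its narrower range over the groups.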

How the data were processed

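Directional RNA-seq libraries of HL-60 cells were trimmed (Trimmomatic 0.33) and aligned to hg38 (STAR 2.7.11a) by the authors, per the labels, and the authors deposited raw counts per gene with the exon coordinates used for counting. The study names RSEM for counting, while the table showed almost no counts for genes lying wholly in shared exons on either strand. Groups came from the sample labels, and no column was left unassigned.

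From the deposited counts, genes passing filterByExpr over 4 groups were fitted in edgeR 4.0.16 (R 4.3.3), with TMM, robust quasi-likelihood dispersions and all 12 libraries (8 residual degrees of freedom), and p-values were adjusted by Benjamini-Hochberg over 13318 genes. Contrasts were each treatment against non-treated cells, CDK4/6i+ATRA against each agent, and the interaction. RPKM used exon length on the primary chromosome. The script was tested on simulated data. Replicates were compared with each other, and their counts differed by more than sampling noise (chi-square per degree of freedom 1.81 to 6.22), so all 12 were kept.

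Members and gene lists were chosen with earlier results of these data known, and no list was tested as a set. Named genes were the 7 members, the tested genes of the HOXA cluster and TALE family, the 3 genes most like each member and the 8 myeloid markers. From each other list that was not of cell type markers, up to 6 genes were named. These had an absolute log2 fold change of at least 1 with both agents and a mean of at least 1 CPM in either group compared. MEIS3, HOXC9, HOXC10, KMT2A, KAT6A and the untested HOXA genes were named after their values were seen. Alternatives were other scalings and filters, a replicate block, DESeq2 1.42.0, fits on the compared groups only, and leaving out each library. A few genes of the lists are not reported here.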

Additional observations from a re-analysis of the deposited data

Results flagged for a closer look

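For 6 of the 12 tested genes of the HOXA cluster and TALE family, beside 51.6% of all tested genes, the effect of CDK4/6i differed between cells with and without ATRA by the test of the difference itself, given as a log2 interaction with its edgeR adjusted p. It was 2.97 for HOXA5 (3.22e-08), 2.64 for PBX3 (3.98e-15), 0.59 for TGIF1 (2.09e-07) and 0.29 for PKNOX1 (0.0434). It was -2.82 for HOXA13 (8.28e-11) and -0.76 for TGIF2 (2.25e-05). The PKNOX1 call was lost in 10 of its alternatives. Its value was -0.031 under library size alone (edgeR adjusted p = 0.852) and 0.19 without CDK4/6i replicate 2 (edgeR adjusted p = 0.211). In the others that lost the call it lay between 0.20 and 0.30. The groups of 3 libraries were too small for single libraries to be examined as outliers.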

How the results depend on the processing

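Of the tested members, HOXA5 with both agents, HOXA11 with ATRA and PBX3 in every comparison but one kept their direction and call in every alternative that could be computed. The number of members called with CDK4/6i, 2, became 1 with library size alone, DESeq2 or its size factors, no filter, the filter of at least 10 counts, the replicate block and the compared groups only, and ran from 1 to 2 when single libraries were left out, in each case through HOXA5. For CDK4/6i+ATRA against ATRA the count of 1 became 2 with library size alone and 0 with at least 10 counts, and for the interaction 2 became 1 with at least 10 counts, a filter that drops HOXA5. HOXA5 with ATRA was called with library size alone, with DESeq2 size factors and without ATRA replicate 1.

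Library size alone moved the median of all genes with both agents from 0.02 to -0.25, and the share of calls that were higher from 50.2% to 40.4%; in the interaction that share went from 47.5% to 18.4%. It gave 3.54 RPKM for HOXA5, 3.88 for HOXA11 and 2.78 for PBX3 with both agents, and 6.99 for HOXA11 with CDK4/6i. The sign turned for HOXA11 between CDK4/6i+ATRA and ATRA (0.0031 with at least 10 counts, and -0.073 to 0.082 leaving out single libraries), for the HOXA11 interaction (-0.26 with library size alone, -0.032 without a filter, and -0.016 to 0.14 leaving out single libraries), for PBX3 between CDK4/6i+ATRA and ATRA (-0.10, library size alone), for PKNOX1 in the interaction (-0.031, library size alone) and for HOXA11-AS with ATRA (-0.28 to 0.53 leaving out single libraries, the former without ATRA replicate 2). In the comparisons of HOXA11, PBX3 and HOXA11-AS just named, the main value was not called. The cause of these turns was not tested. With group means in place of libraries, 1 of the 3 genes most like HOXA5, 0 of those most like HOXA11 and all 3 most like PBX3 were the same.

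The replicate numbers did not pair the libraries, since deviations of same-numbered libraries correlated between -0.0702 and 0.0328, and with the replicate block HOXA5 with CDK4/6i had an edgeR adjusted p of 0.0553. The block changed no other member call. Summing HOXA9, HOXA10 and the readthrough gene gave 0 counts and no value. Of the 3 tested members HOXA5 had the lowest total count, with 5 to 87 counts per library.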
